A study of Mus musculus with 15 samples.

Results

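The DNA replication and mitosis genes described here are 40 mouse genes of the cell division cycle, found by symbol among the 37583 genes of the count tables. They fall by role into 19 replication genes, 18 mitosis genes and the 3 D-type cyclins, and all 40 passed the filter on low counts that left 14652 genes for testing. They were measured by RNA sequencing in cells of skin tumours of C57BL/6 mice, each of which had received the mutagen DMBA and the tumour promoter TPA, a phorbol ester, for more than 24 weeks. Flow cytometry separated 3 populations by CD34, a marker of hair follicle stem cells, and by a6, the integrin encoded by Itga6 that anchors basal keratinocytes. They are CD34-positive a6-high cells (called CD34-positive hereafter), CD34-negative cells with high a6 and CD34-negative cells with low a6 (called a6-low). Tumours were wild type (WT) or came from SIRT6 KO mice (K14-cre; SIRT6 flox/flox), in which a Cre recombinase under the keratin 14 promoter of basal keratinocytes acts on floxed alleles of the deacetylase gene Sirt6. In the KO mice the deletion is thus limited to cells in which that promoter is or was active. Each of the 3 populations had 2 KO and 3 WT libraries, 15 in all, and the members took 0.148% to 0.563% of a library's gene counts.

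D-type cyclins link growth signals to the start of the cycle, where cyclin E with Cdk2 and the E2F transcription factors starts S phase. In S phase the MCM helicase, loaded on origins by Cdc6 and Cdt1, unwinds DNA for the polymerases, while ribonucleotide reductase and thymidylate synthase supply nucleotides. Mitosis genes such as Cdk1, the B-type cyclins, the Aurora and Polo kinases and the spindle checkpoint genes are transcribed later, in G2 and M phase. In interfollicular skin dividing keratinocytes sit mainly in the basal layer, and cells that move up leave the cycle and differentiate. Replication genes are known as targets of E2F factors. Many mitosis genes carry a CHR element (cell cycle genes homology region), bound by the DREAM and B-Myb complexes, and CCAAT boxes, bound by NF-Y, near their start.

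Promoters of the members were read from RefSeq sequence of the build GRCm38.p6, from 250 bases before to 50 bases after each start site, and 31 of the 40 members had an entry. No sequence is shown for Ccna2, Ccne2, Ccnd1, Ccnd2, Aurkb, Foxm1, Mcm4, Gins2 and Pole. The E2F letters TTTCCCGC, TTTCGCGC, TTTGCCGC or TTTGGCGC, on either strand, occurred in 8 of 15 replication members (53.3%), in 1 of 15 mitosis members (6.67%, Cdk1) and in 2.6% of the 27025 genes of the promoter table. The CHR letters TTTGAA or TTCGAA, on either strand, occurred in 12 of 15 mitosis members (80%), in 2 of 15 replication members (13.3%, Mcm2 and Mcm7) and in 21.7% of all genes. Letters CCAAT, on either strand, occurred in 13 of 15 mitosis members (86.7%), 9 of 15 replication members (60%) and 41.1% of all genes. CHR and CCAAT stood together in 80% of the mitosis members, 13.3% of the replication members and 8.61% of all genes. Of the genes tested here 10252 had an entry, and among those the E2F letters were in 4.55% and the CHR letters in 16.5%. A match is a description of the sequence and not a shown binding site, and these letters are only part of what such factors bind.

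The stretch from 170 bases before the start site to the base before it is printed for 9 members, 5 mitosis members in which CHR and CCAAT letters stand close together and 4 replication members with E2F letters, to show the 2 promoter types side by side. Capitals mark every match to the 3 motifs on either strand, so that a box on the opposite strand prints as the reverse complement of the letters above, and neighbouring matches can overlap. The mitosis members are Cdk1 (chr10:69352913-69353082, minus strand), Top2a (chr11:99024190-99024359, minus strand), Ube2c (chr2:164769759-164769928, plus strand), Kif11 (chr19:37376212-37376381, plus strand) and Cdc20 (chr4:118437344-118437513, minus strand).
Cdk1: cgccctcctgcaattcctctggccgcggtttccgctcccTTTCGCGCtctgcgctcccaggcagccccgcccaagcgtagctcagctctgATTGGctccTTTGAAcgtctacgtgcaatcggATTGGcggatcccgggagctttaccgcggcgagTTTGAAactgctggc
Top2a: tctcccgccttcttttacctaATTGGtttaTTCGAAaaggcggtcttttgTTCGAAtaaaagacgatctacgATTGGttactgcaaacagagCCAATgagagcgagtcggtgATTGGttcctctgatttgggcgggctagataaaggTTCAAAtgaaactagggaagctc
Ube2c: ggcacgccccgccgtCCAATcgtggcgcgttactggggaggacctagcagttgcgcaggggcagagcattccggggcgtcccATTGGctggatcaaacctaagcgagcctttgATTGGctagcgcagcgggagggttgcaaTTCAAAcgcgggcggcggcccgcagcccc
Kif11: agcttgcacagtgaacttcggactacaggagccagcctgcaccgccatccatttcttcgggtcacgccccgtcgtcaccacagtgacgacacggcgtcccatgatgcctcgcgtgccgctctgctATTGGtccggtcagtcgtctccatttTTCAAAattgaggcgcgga
Cdc20: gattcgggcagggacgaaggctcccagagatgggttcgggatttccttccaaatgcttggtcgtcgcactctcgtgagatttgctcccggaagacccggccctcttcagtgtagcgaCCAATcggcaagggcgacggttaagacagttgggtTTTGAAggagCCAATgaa
The replication members are Mcm5 (chr8:75109339-75109508, plus strand), Mcm6 (chr1:128359706-128359875, minus strand), Mcm7 (chr5:138171884-138172053, minus strand) and Cdc6 (chr11:98907981-98908150, plus strand).
Mcm5: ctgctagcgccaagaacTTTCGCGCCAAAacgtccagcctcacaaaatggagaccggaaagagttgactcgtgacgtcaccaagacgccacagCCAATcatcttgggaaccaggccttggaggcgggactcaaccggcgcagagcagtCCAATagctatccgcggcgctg
Mcm6: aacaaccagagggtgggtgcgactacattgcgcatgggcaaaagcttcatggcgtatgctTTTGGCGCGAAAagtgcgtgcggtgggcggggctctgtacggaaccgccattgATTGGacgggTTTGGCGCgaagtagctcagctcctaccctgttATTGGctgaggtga
Mcm7: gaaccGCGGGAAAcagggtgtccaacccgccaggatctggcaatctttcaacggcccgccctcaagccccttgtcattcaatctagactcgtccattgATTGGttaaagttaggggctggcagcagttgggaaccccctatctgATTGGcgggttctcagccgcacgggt
Cdc6: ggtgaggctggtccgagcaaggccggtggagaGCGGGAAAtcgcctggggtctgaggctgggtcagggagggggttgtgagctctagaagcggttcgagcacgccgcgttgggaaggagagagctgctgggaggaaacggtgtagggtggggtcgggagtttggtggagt
In Mcm5 and Mcm6 a pair of E2F matches on opposite strands overlap and print as 1 run of capitals. In Kif11 the CCAAT box starts 45 bases and the CHR letters 19 bases before the start site.

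**Figure D1:**
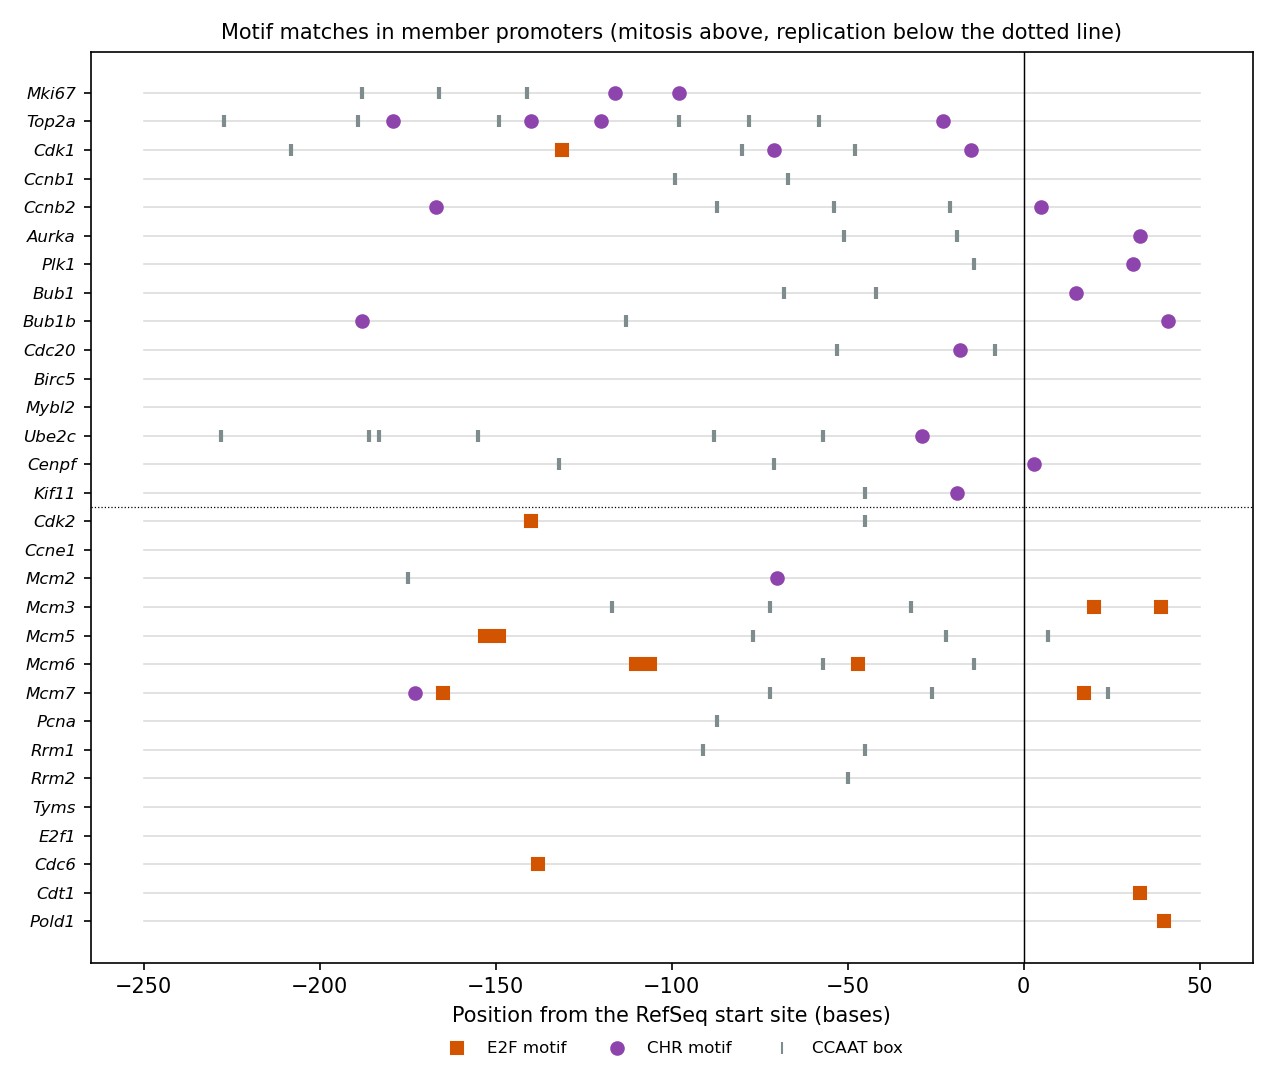
Matches to the E2F letters (squares), CHR letters (circles) and CCAAT box (bars) in the promoters of 15 mitosis members (above the dotted line) and 15 replication members (below it), by distance from the RefSeq start site in bases. Squares lie on 8 replication members and on 1 mitosis member, and circles on 12 mitosis members and 2 replication members.

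Libraries held 10.08 to 28.62 M reads counted in genes (M, 1e6, median 20.27 M), with 19.78 to 28.62 M in KO and 10.08 to 21.56 M in WT libraries. Sirt6 itself lay at 5.07 to 8.53 CPM (counts per 1e6 counts of tested genes, scaled by TMM) in KO and 4.45 to 10.5 CPM in WT libraries, so its count over the whole gene does not check the genotype label. KO replicate 2 differed from the rest in the Y-linked gene Ddx3y, at 51.9 to 74.9 CPM in its 3 libraries and at no more than 0.222 CPM in the other 12. Itga6 RNA lay at 263 to 576 CPM in a6-high libraries and at 67.9, 94.1 and 174 CPM in 3 a6-low libraries. In a6-low WT replicate 1 and KO replicate 2 it lay at 471 and 445 CPM, within the a6-high range. Cd34 RNA lay at 40.3 and 27.7 CPM in these 2 and at 4.51, 10.3 and 15.5 CPM in the other a6-low libraries. Flow cytometry sorts on protein, so RNA levels do not by themselves contradict the gate. Ddx3y sets KO replicate 2 apart from KO replicate 1 (at most 0.0363 CPM), as libraries of animals of different sex would be. It does not tell the WT replicates apart. Nothing in the labels tells whether replicates are separate animals, so the p-values speak of the spread over these libraries alone, which may be partly technical. In bulk RNA, fewer dividing cells and less RNA per cell cannot be told apart.

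Fitted levels of all 40 members were lower in a6-low than in CD34-negative a6-high cells, and most mitosis genes, but only 10 of 19 replication genes, were fitted higher in CD34-positive than in CD34-negative a6-high cells. In edgeR without a replicate block 0 members were called in either comparison. From a6-low to CD34-positive cells 6 of 40 members rose, among them Cdk1, Plk1, Ccne1 and Ccnd1, beside 2.25% of all genes, and 0 were called without the CD34-positive library of KO replicate 1. Over all genes, too, calls were fewest without that library among the fits without 1 library. The mean log2(CPM + 1) of the 19 replication members lay at 5.93 to 6.36 in CD34-positive, 5.51 to 6.66 in CD34-negative a6-high and 4.84 to 6.11 in a6-low libraries. That of the 18 mitosis members lay at 5.76 to 6.51, 5.31 to 6.13 and 3.77 to 5.62. Populations overlapped on both measures. Between same-numbered libraries, CD34-positive minus CD34-negative a6-high, the replication mean differed by 0.06, 0.42, -0.18, 0.37 and -0.37 (KO replicates 1 and 2, then WT replicates 1, 2 and 3), a mean of 0.06 ± 0.34 (SD, n = 5 pairs). The mitosis mean differed by 0.42, 0.46, 0.30, 0.53 and -0.04, a mean of 0.33 ± 0.22. So the mitosis mean was higher in 4 of 5 pairs and the replication mean in 3 of 5. Between high-a6 and low-a6 libraries of CD34-negative cells both means were higher in all 5 pairs, by 0.64 ± 0.35 for replication and 0.81 ± 0.54 for mitosis. Libraries of the latter pairs were matched by number only, as they did not all deviate together. The a6-low library of WT replicate 2 was the lowest of all 15 on both means, at 4.84 and 3.77. It also had the fewest gene counts (10.08 M), the fewest genes detected (15885) and the largest share of records aligned to several places (38.04%). The part of depth or library quality in its low means was not tested.

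**Figure D2:**
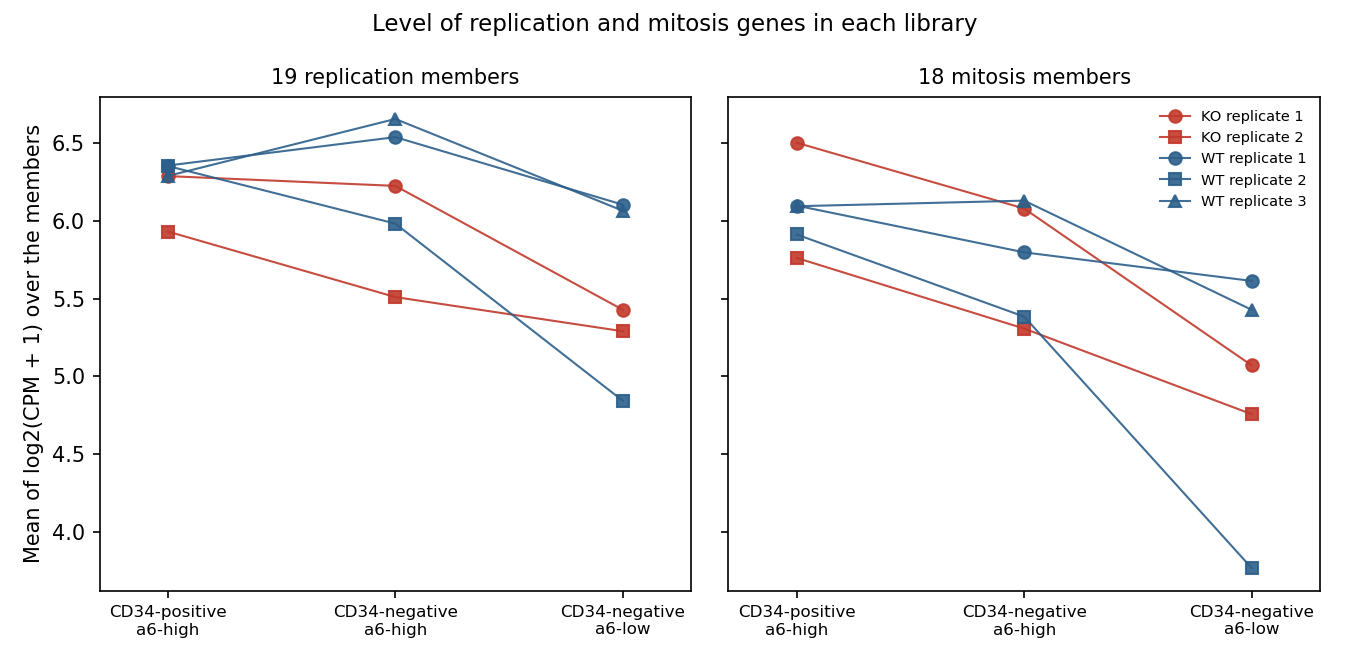
Mean log2(CPM + 1) of the 19 replication members (left) and the 18 mitosis members (right) in each library, with lines joining libraries of the same genotype and replicate number across the 3 sorted populations. The a6-low library of WT replicate 2 lies lowest in both panels, at 4.84 and 3.77.

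Between the a6-high populations, CD34-positive against CD34-negative, 0 of 40 members passed the test at an adjusted p of 0.05, beside 1.17% of all genes tested (edgeR quasi-likelihood test, Benjamini-Hochberg over 14652 genes). At an unadjusted p under 0.05, 3 members were higher and 0 lower, beside 8.11% and 7.02% of all genes, and DESeq2 called Ccne1 and Ccnd1, beside 5.83% of all genes. With no filter on low counts edgeR called 5 members, beside 1242 calls over all genes. With only the compared groups in the fit it called Ccnd1, beside 311 calls over all genes. Of the mitosis members 16 were fitted higher and 2 lower, with a median log2 difference of 0.33, and of the replication members 10 higher and 9 lower, with a median of 0.06. Of all genes 47.2% were fitted higher, with a median of -0.02. Leaving out the KO replicate 2 or the KO replicate 1 library of CD34-negative a6-high cells moved the replication median to -0.11 or 0.30 and the mitosis median to 0.13 or 0.60. With same-numbered libraries of a genotype as a block, Ccne1, Ccnd1 and Plk1 were called higher, 3 of 40 members beside 3.33% of all genes, and 0 were called lower, beside 2.08%.

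Between high and low a6 in CD34-negative cells all 40 members had a higher fitted level in a6-high cells, beside 47.6% of all genes, but 0 of 40 passed the adjusted test, and 0.00683% of all genes did. The median log2 difference was 0.60 over the replication and 0.81 over the mitosis members, and -0.02 over all genes. At an unadjusted p under 0.05, 18 members were higher and 0 lower, beside 4.8% and 6.27% of all genes, and DESeq2 called 0, beside 1.52% of all genes. With no filter on low counts edgeR called 14 members, beside 602 calls over all genes. In 25 members the a6-high library was the higher one in all 5 same-numbered pairs, as in 7.94% of all genes. Deviations of these pairs from group means did not correlate above 0.1 in every pair. Pairs and block of this comparison thus rest on the number alone. Bub1b was the only member of the 40 whose a6-high and a6-low libraries did not overlap, as in 0.874% of all genes. The replicate block called 0 members, beside 0.0546% of all genes higher and 0.355% lower.

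Between the 2 ends of the sort, CD34-positive against a6-low cells, 6 of 40 members rose and 0 fell, beside 2.25% and 2.68% of all genes (4.93% in either direction). They were the mitosis genes Cdk1, Plk1, Ube2c and Aurkb, the replication gene Ccne1 and the D-type cyclin Ccnd1. This comparison shares its libraries with the previous 2, and each fitted value is the sum of theirs. Mitosis members were higher in 18 of 18 with a median log2 difference of 1.08, and replication members in 18 of 19 with a median of 0.68, against 47.9% and -0.02 over all genes. Same-numbered libraries of a genotype deviated together here, and with them as a block 22 members rose (9 replication, 12 mitosis and Ccnd1) and 0 fell, beside 5.68% and 6.15% of all genes. DESeq2 called 16 members, beside 10.9% of all genes. Calls over all genes, 722 in the full edgeR fit, were fewer in every fit without 1 library, at 677 at most. They were fewest without the CD34-positive library of KO replicate 1, and they also fell without KO replicate 2. A fit without 1 KO library leaves 1 library in its group. The count of 6 was 0 without the CD34-positive library of KO replicate 1, 2 without either the CD34-positive or the a6-low library of KO replicate 2, 3 without any 1 of the CD34-positive WT libraries and 8 without the a6-low library of WT replicate 3. It was 3 (Cdk1, Ccne1 and Ccnd1) without the a6-low libraries of WT replicate 1 and KO replicate 2, which had high Itga6. It was 0 without the 3 libraries of KO replicate 2, where the 6 log2 differences were 1.21 to 1.81 and their edgeR adjusted p 0.0785 to 0.146.

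**Figure D3:**
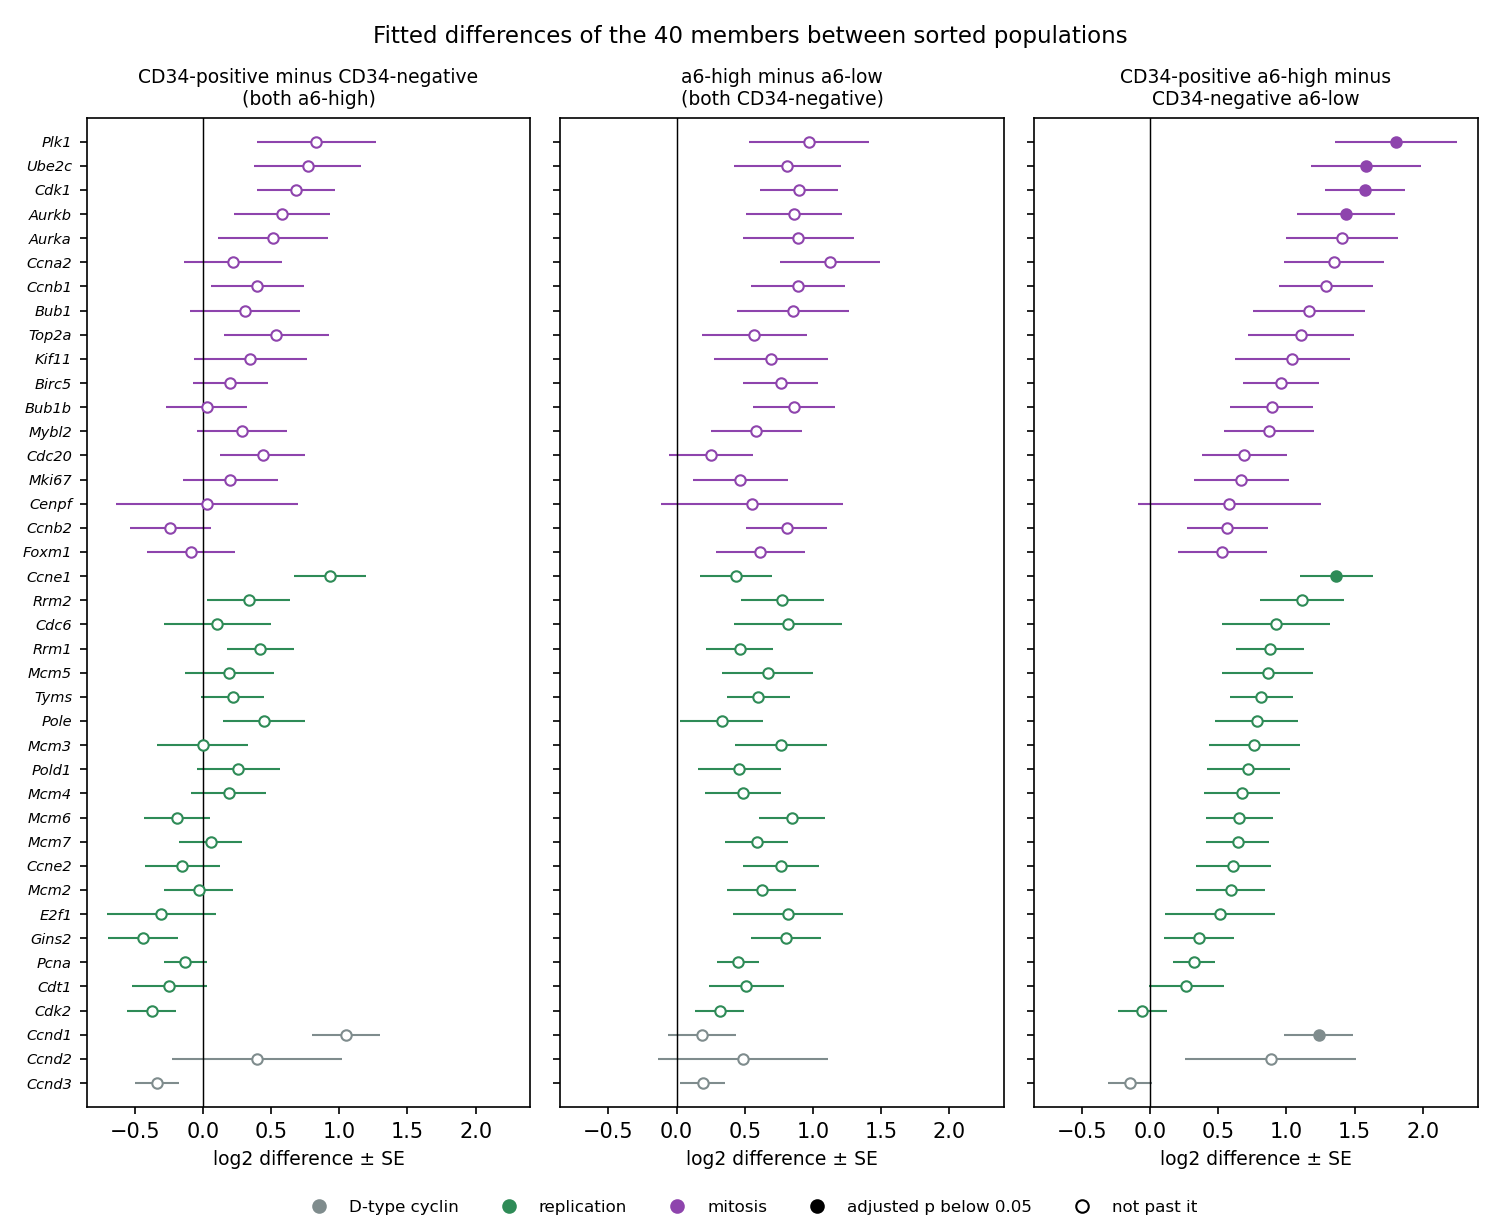
Fitted log2 differences with standard errors of the 40 members in the comparisons between sorted populations, coloured by role and ordered by the right-hand panel. Filled points passed an adjusted p of 0.05 and occur only in the right-hand panel, where they are 6 in number, and all 40 points of the middle panel lie above 0.

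Markers of other cells and of differentiation also varied between these libraries. The 7 suprabasal keratinocyte markers in the table (of 8, Krt1, Krt10 and Ivl among them) summed to 5390 to 17900 CPM in CD34-positive, 7780 to 13900 CPM in CD34-negative a6-high and 6190 to 39600 CPM in a6-low libraries. The highest sum, 39600 CPM, was that of a6-low WT replicate 2, which had the lowest means of both lists and the fewest gene counts. Gene by gene, 5 of the 7 were fitted higher in CD34-positive than in CD34-negative a6-high cells (median log2 0.97) and than in a6-low cells (0.33), and 6 of 7 were fitted lower in CD34-negative a6-high than in a6-low cells (-0.55), with 0 called by edgeR. The 8 macrophage and dendritic cell markers summed to 21.1 to 44.3, 9.51 to 127 and 31 to 178 CPM. Of the 6 tested, 4 were fitted lower in CD34-positive than in CD34-negative a6-high cells (median log2 -1.19), and edgeR called 1 higher. Against a6-low cells 4 were also lower (-2.38), with 1 called lower. Between a6-high and a6-low CD34-negative cells 5 were lower (-1.65), with 0 called. Of the 6 T and NK cell markers Trbc2 made up nearly all, at 29.3 to 129 CPM, while Cd3e, Cd3d, Cd3g and Nkg7 reached at most 0.537 CPM and Cd8a was at 0 in every library. Trbc2 was called higher by edgeR in CD34-positive than in a6-low cells (log2 0.83). Fibroblast markers summed to at most 4.33 CPM and the 7 endothelial markers to 6.55 to 51.4, 1.1 to 2.61 and 1.71 to 17.4 CPM in the 3 populations. The 4 melanocyte markers summed to 132 CPM in a6-low KO replicate 1 and to at most 6.41 CPM elsewhere. Basal keratinocyte markers (Krt5, Krt14 and 4 others) summed to 35000 to 83100 CPM in a6-high and 34700 to 67400 CPM in a6-low libraries, so keratinocyte RNA was abundant in all 15. The part of differentiated or immune cells in the members' differences was not tested.

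The 3 D-type cyclins, which bind Cdk4 and Cdk6, had unlike profiles. In each sentence of values that follows, 5 values stand for KO replicates 1 and 2 and then WT replicates 1, 2 and 3. Ccnd1 (ENSMUSG00000070348) lay at 319, 248, 438, 236 and 217 CPM in CD34-positive libraries, at 147, 124, 115, 174 and 147 CPM in CD34-negative a6-high ones and at 108, 102, 216, 101 and 117 CPM in a6-low ones. Every CD34-positive library lay above every CD34-negative a6-high library, as in 2.56% of all genes. The log2 difference was 1.05 ± 0.25 (SE) with an adjusted p of 0.064 without the block and 0.0321 with it (edgeR). Against a6-low cells Ccnd1 rose 2.36-fold (log2 1.24 ± 0.25, edgeR adjusted p = 0.0205), and the lowest CD34-positive library, 217 CPM, lay just above the highest a6-low one, 216 CPM. Such a separation of CD34-positive from a6-low libraries was seen in 3.25% of all genes. Ccnd2 was at 187, 508, 287, 445 and 336 CPM in CD34-positive libraries, at 106, 606, 62.8, 435 and 103 CPM in CD34-negative a6-high ones and at 57, 346, 155, 209 and 178 CPM in a6-low ones. In CD34-negative a6-high cells the libraries of both replicates numbered 2 lay at 606 and 435 CPM and the other 3 at 62.8 to 106 CPM. It was not called between populations by edgeR without or with the block, but was between CD34-positive and a6-low cells with no filter on low counts. Ccnd3 had 49.6, 51.7, 70.8, 67.9 and 84.4 CPM in CD34-positive libraries, 80.6, 51.7, 95.4, 72.4 and 105 CPM in CD34-negative a6-high ones and 66.1, 57.2, 66.8, 70.9 and 87 CPM in a6-low ones. Its libraries overlapped between populations, and its log2 difference was -0.34 ± 0.16 between the a6-high populations (edgeR adjusted p = 0.36).

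Cyclin E and its kinase come next in the cycle. Ccne1 (ENSMUSG00000002068), the cyclin that activates Cdk2 at the start of S phase, measured 73.7, 68.5, 70, 68.8 and 80.3 CPM in CD34-positive libraries, 40.2, 25.2, 46.6, 25.7 and 59 CPM in CD34-negative a6-high ones and 38, 21.2, 27.6, 17.4 and 33.9 CPM in a6-low ones. The 5 CD34-positive libraries lay within 68.5 to 80.3 CPM, above all 10 others. Against a6-low cells it rose 2.58-fold (log2 1.37 ± 0.27, edgeR adjusted p = 0.018), and against CD34-negative a6-high cells its log2 difference was 0.93 ± 0.26 (edgeR adjusted p = 0.107, 0.0108 with the block). Cdk2 stood at 44.7, 46.2, 49.9, 56.4 and 56.2 CPM in CD34-positive libraries, at 63, 45.4, 88.2, 63.1 and 77.7 CPM in CD34-negative a6-high ones and at 48.2, 52.7, 66, 35.4 and 56.8 CPM in a6-low ones. Cdk2 had the next smallest p among replication members between the a6-high populations, in the other direction, with a log2 difference of -0.37 ± 0.18 (edgeR adjusted p = 0.354). Ccne2, the other cyclin E gene, passed in no comparison (edgeR), with log2 differences of -0.15 between the a6-high populations and 0.76 between a6-high and a6-low cells. E2f1, an activator of S phase genes, ranged from 3.44 to 37.7 CPM and differed by -0.31 and 0.82.

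The helicase genes and their loaders had larger fitted differences between a6-high and a6-low cells than between the a6-high populations. Mcm6, a subunit of the MCM helicase, lay at 212, 173, 214, 253 and 259 CPM in CD34-positive libraries, at 248, 142, 339, 232 and 364 CPM in CD34-negative a6-high ones and at 122, 99.5, 198, 91.2 and 220 CPM in a6-low ones. It had the smallest p of all members between a6-high and a6-low cells (log2 0.85 ± 0.24, edgeR adjusted p = 0.251, 0.0922 with the block), and the WT replicate 1 and 3 libraries of CD34-negative a6-high cells were the highest. Mcm4 was at 159, 111, 171, 116 and 106 CPM in CD34-positive libraries, at 143, 78.4, 116, 109 and 145 CPM in CD34-negative a6-high ones and at 91.1, 66.9, 129, 45.2 and 87.4 CPM in a6-low ones. Mcm5 had 190, 131, 177, 192 and 170 CPM in CD34-positive libraries, 169, 76.6, 179, 127 and 231 CPM in CD34-negative a6-high ones and 92.6, 60.2, 155, 44.8 and 142 CPM in a6-low ones. Mcm7 measured 159, 122, 150, 161 and 156 CPM in CD34-positive libraries, 157, 92.8, 163, 136 and 187 CPM in CD34-negative a6-high ones and 88.6, 70.8, 139, 61.3 and 137 CPM in a6-low ones. In these 3 helicase genes the a6-low libraries of WT replicates 1 and 3 lay within the range of the a6-high libraries, while those of WT replicate 2 and KO replicate 2 were the 2 lowest of all 15. Cdc6, which loads the helicase, stood at 14.4, 7.77, 16.1, 7.86 and 10.3 CPM in CD34-positive libraries, at 10.6, 5.78, 12.3, 8.6 and 19.5 CPM in CD34-negative a6-high ones and at 4.51, 4.4, 11.4, 2.55 and 9.68 CPM in a6-low ones. Gins2, a subunit of the GINS complex of the active helicase, lay at 26.3, 30.2, 27.4, 54 and 46.8 CPM in CD34-positive libraries, at 39.2, 39.3, 64, 47 and 59.5 CPM in CD34-negative a6-high ones and at 20.4, 25.8, 33.7, 16.6 and 44.7 CPM in a6-low ones. Gins2 differed by 0.80 ± 0.26 on the log2 scale between a6-high and a6-low cells (edgeR adjusted p = 0.297) and by -0.44 between the a6-high populations. With the block Mcm4, Mcm5, Mcm6, Mcm7 and Cdc6 rose in CD34-positive over a6-low cells, with log2 differences of 0.68 to 0.96 and adjusted p of 0.0396 to 0.0498 (edgeR). Without the a6-low library of WT replicate 2, Mcm4, Mcm6 and Cdc6 were not among the 19 members called with the block. Mcm2 and Mcm3, the remaining helicase subunits measured, and the loader Cdt1 ranged from 45.8 to 150, 29.3 to 155 and 15.9 to 64.3 CPM over the 15 libraries.

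Genes of nucleotide supply and of the replication fork followed. Rrm1, the large subunit of ribonucleotide reductase, was at 427, 238, 361, 401 and 446 CPM in CD34-positive libraries, at 274, 189, 352, 222 and 395 CPM in CD34-negative a6-high ones and at 219, 158, 258, 127 and 241 CPM in a6-low ones. Rrm2, its regulated small subunit, had 369, 264, 498, 515 and 462 CPM in CD34-positive libraries, 301, 151, 527, 256 and 512 CPM in CD34-negative a6-high ones and 190, 103, 268, 119 and 295 CPM in a6-low ones. Tyms, thymidylate synthase, measured 118, 103, 137, 160 and 177 CPM in CD34-positive libraries, 98.3, 78.2, 181, 87.3 and 170 CPM in CD34-negative a6-high ones and 59.7, 59.5, 89.8, 62.6 and 130 CPM in a6-low ones. All 3 were higher in CD34-positive than in a6-low libraries in 5 of 5 same-numbered pairs, as were 14.7% of all genes. Their log2 differences were 0.88, 1.11 and 0.82, with edgeR adjusted p of 0.0613, 0.0572 and 0.0603 without the block and 0.00878, 0.00689 and 0.0154 with it. Pcna, the sliding clamp of the DNA polymerases, stood at 155, 177, 204, 206 and 183 CPM in CD34-positive libraries, at 179, 154, 276, 181 and 250 CPM in CD34-negative a6-high ones and at 129, 121, 179, 127 and 197 CPM in a6-low ones. Pcna spanned 121 to 276 CPM over the 15 libraries and differed by 0.45 ± 0.16 between a6-high and a6-low cells (edgeR adjusted p = 0.325). The polymerase genes Pold1 and Pole ranged from 16.9 to 62 and from 3.66 to 14.7 CPM and were not called by edgeR without or with the block.

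The mitosis genes called without the block are a kinase that drives entry into mitosis and 3 regulators of its course. Cdk1 (ENSMUSG00000019942), the mitotic kinase, lay at 207, 149, 230, 224 and 249 CPM in CD34-positive libraries, at 138, 81.8, 142, 110 and 191 CPM in CD34-negative a6-high ones and at 62.9, 42.7, 109, 38.8 and 117 CPM in a6-low ones. Every CD34-positive library exceeded every a6-low library, 149 against at most 117 CPM. Cdk1 rose 2.98-fold in CD34-positive over a6-low cells (log2 1.58 ± 0.29, edgeR adjusted p = 0.0156), and it lay between them in CD34-negative a6-high cells in all 5 same-numbered sets. Its log2 difference was 0.68 ± 0.29 between the a6-high populations (edgeR adjusted p = 0.279, 0.0701 with the block) and 0.90 ± 0.29 between a6-high and a6-low cells (0.297 and 0.084). Plk1 (ENSMUSG00000030867), the Polo kinase of mitosis, was at 148, 50.7, 96.5, 113 and 142 CPM in CD34-positive libraries, at 73.4, 32.6, 65.7, 41 and 102 CPM in CD34-negative a6-high ones and at 40.1, 14.2, 36.2, 15 and 54.2 CPM in a6-low ones. In all 5 same-numbered sets Plk1 was highest in the CD34-positive, intermediate in the CD34-negative a6-high and lowest in the a6-low library. It rose 3.49-fold between the ends of the sort (log2 1.80 ± 0.45, edgeR adjusted p = 0.0401), although the CD34-positive library of KO replicate 2, 50.7 CPM, lay below the a6-low library of WT replicate 3, 54.2 CPM.

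Ube2c (ENSMUSG00000001403), the ubiquitin-conjugating enzyme of the anaphase-promoting complex, had 233, 135, 198, 201 and 266 CPM in CD34-positive libraries, 134, 81.4, 116, 101 and 174 CPM in CD34-negative a6-high ones and 58.6, 63.2, 99.7, 17 and 107 CPM in a6-low ones. Aurkb (ENSMUSG00000020897), the kinase of the chromosomal passenger complex, measured 90.9, 47.8, 92.4, 75.2 and 82.6 CPM in CD34-positive libraries, 61.9, 36.8, 46.5, 40.8 and 70.2 CPM in CD34-negative a6-high ones and 25.6, 23.6, 46.6, 9.87 and 39 CPM in a6-low ones. In both genes the CD34-positive libraries lay above all a6-low libraries, by a small margin in Aurkb (47.8 against 46.6 CPM). Ube2c rose 2.995-fold (log2 1.58 ± 0.40, edgeR adjusted p = 0.0431) and Aurkb 2.71-fold (log2 1.44 ± 0.36, edgeR adjusted p = 0.0403). Between the a6-high populations Ube2c differed by 0.77 ± 0.39 (edgeR adjusted p = 0.397), with a higher CD34-positive library in 5 of 5 pairs, as in 10.1% of all genes. The plot of CPM by population shows the 6 members called, and in Aurkb the a6-low and CD34-negative a6-high libraries of WT replicate 1 were level, 46.6 and 46.5 CPM.

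**Figure D4:**
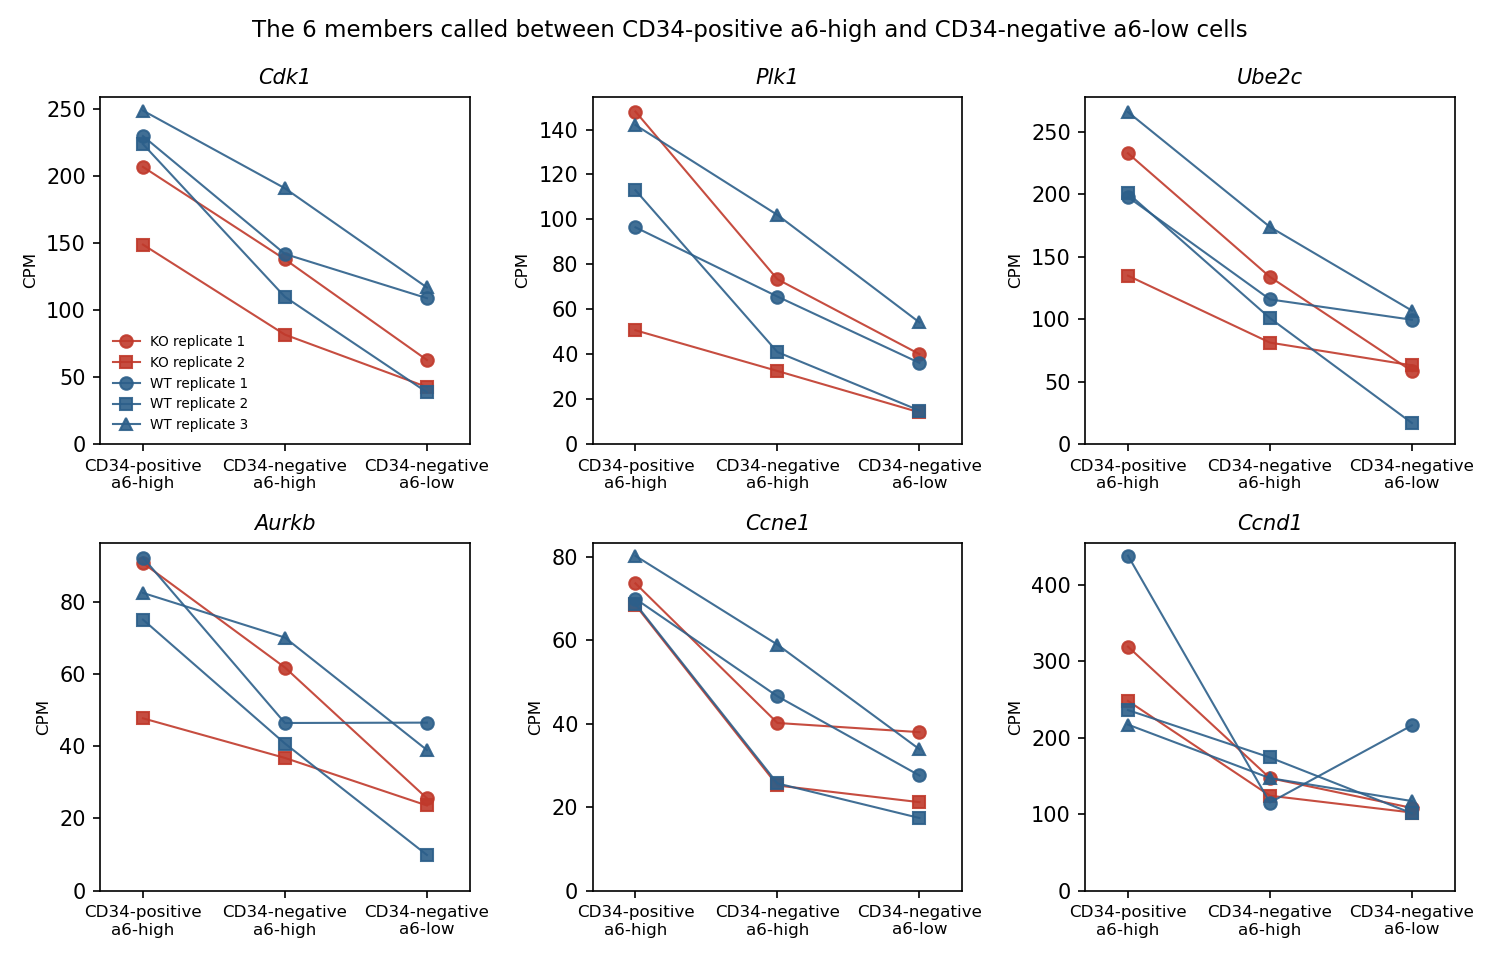
CPM of the 6 members called between CD34-positive and CD34-negative a6-low cells, with lines joining libraries of the same genotype and replicate number. In Ccne1 the 5 CD34-positive libraries lie at 68.5 to 80.3 CPM and the other 10 at or under 59 CPM.

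Cyclins A and B activate Cdk1. Ccna2 stood at 124, 79.9, 117, 75 and 77.5 CPM in CD34-positive libraries, at 105, 62.4, 75, 67.3 and 98.7 CPM in CD34-negative a6-high ones and at 39.6, 25.5, 63.8, 12.6 and 53.7 CPM in a6-low ones. Ccnb1 lay at 161, 95.8, 135, 146 and 172 CPM in CD34-positive libraries, at 106, 67.4, 132, 76.7 and 177 CPM in CD34-negative a6-high ones and at 64.9, 36.6, 70.9, 25.6 and 94.5 CPM in a6-low ones. CD34-positive libraries of both lay above all a6-low libraries, and in Ccna2 the a6-low library of WT replicate 2 was the lowest by far, at 12.6 CPM. Ccna2 had the largest fitted difference of the members between a6-high and a6-low cells (log2 1.13 ± 0.37, edgeR adjusted p = 0.302), and between CD34-positive and a6-low cells the log2 differences were 1.35 for Ccna2 (edgeR adjusted p = 0.055, 0.0112 with the block) and 1.29 for Ccnb1 (0.0521 and 0.0048). Ccnb2, the other B-type cyclin, was 0.24 lower on the log2 scale in CD34-positive than CD34-negative a6-high cells (edgeR adjusted p = 0.804).

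Spindle and checkpoint genes follow. Aurka, the kinase of the spindle poles, was at 82.4, 46.4, 61.9, 70 and 101 CPM in CD34-positive libraries, at 55.5, 30.7, 46.2, 31.1 and 93.4 CPM in CD34-negative a6-high ones and at 35, 17.3, 29.1, 10.4 and 41.5 CPM in a6-low ones. Bub1, a spindle checkpoint kinase, had 36.9, 24.9, 29.1, 19.7 and 19.4 CPM in CD34-positive libraries, 26, 14.8, 23.9, 13.9 and 29.8 CPM in CD34-negative a6-high ones and 15, 8.21, 19, 3 and 13.8 CPM in a6-low ones. Bub1b, which encodes the checkpoint protein BubR1, measured 46.1, 26.9, 30.8, 31.5 and 39 CPM in CD34-positive libraries, 42.9, 27.9, 29.6, 31.6 and 39.4 CPM in CD34-negative a6-high ones and 22.2, 15.1, 24.5, 7.77 and 25.1 CPM in a6-low ones. In all 3 the lowest CD34-positive library was above the highest a6-low one. For Bub1b the a6-high CD34-negative libraries were also above them, with log2 differences of 0.86 ± 0.30 for a6 and 0.03 for CD34, whereas for Aurka they were 0.89 ± 0.40 and 0.51 ± 0.40. Cdc20, the activator of the anaphase-promoting complex, stood at 446, 276, 345, 314 and 451 CPM in CD34-positive libraries, at 284, 178, 348, 180 and 417 CPM in CD34-negative a6-high ones and at 288, 175, 222, 117 and 324 CPM in a6-low ones. Birc5, the survivin subunit of the chromosomal passenger complex, lay at 176, 159, 212, 245 and 237 CPM in CD34-positive libraries, at 149, 112, 277, 125 and 273 CPM in CD34-negative a6-high ones and at 99.6, 70.2, 127, 62.1 and 171 CPM in a6-low ones. Mybl2, the B-Myb transcription factor of mitosis genes, was at 27.2, 19, 24, 25 and 25 CPM in CD34-positive libraries, at 22.1, 10, 22.9, 16.6 and 32.1 CPM in CD34-negative a6-high ones and at 13, 8.34, 22.7, 6.66 and 18.2 CPM in a6-low ones. These 3 overlapped between CD34-positive and a6-low libraries, and each was higher in 5 of 5 same-numbered pairs. With the block Aurka, Bub1, Bub1b, Cdc20, Birc5 and Mybl2 were called in that comparison, with adjusted p of 0.00376 for Aurka, 0.0189 for Bub1, 0.0315 for Bub1b, 0.0125 for Cdc20, 0.0139 for Birc5 and 0.0366 for Mybl2 (edgeR).

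The usual markers of dividing cells were not called by edgeR between populations, without or with the block. Mki67, which encodes the Ki-67 antigen, had 92.3, 45.2, 55.5, 48.7 and 45.7 CPM in CD34-positive libraries, 72.4, 44.3, 61.4, 27.2 and 45.1 CPM in CD34-negative a6-high ones and 31.4, 43.2, 59, 15.1 and 34.8 CPM in a6-low ones. Top2a, the topoisomerase that untangles chromosomes, measured 157, 72.7, 85.6, 66.7 and 69.1 CPM in CD34-positive libraries, 111, 39.8, 47.4, 56.6 and 55.4 CPM in CD34-negative a6-high ones and 36.3, 47.3, 74.2, 14.9 and 41.3 CPM in a6-low ones. In both, the library of KO replicate 1 was far above the other 4 in CD34-positive cells (92.3 and 157 CPM), and the populations overlapped. Mki67 differed by 0.20 ± 0.35 between the a6-high populations (edgeR adjusted p = 0.877) and by 0.47 ± 0.35 between a6-high and a6-low cells (0.686). For Top2a the values were 0.54 ± 0.39 (0.6) and 0.57 ± 0.39 (0.641). Between CD34-positive and a6-low cells Mki67 differed by 0.67 ± 0.35 (edgeR adjusted p = 0.292, 0.122 with the block) and was higher in 4 of 5 pairs. There Top2a differed by 1.11 ± 0.39 (edgeR adjusted p = 0.124, 0.0784 with the block) and was higher in 5 of 5 pairs. Top2a was called in that comparison by DESeq2, by edgeR with no filter on low counts and without the a6-low library of WT replicate 1. The remaining mitosis members were not called between populations by edgeR without or with the block, although with no filter on low counts Kif11 was between CD34-positive and a6-low cells. They are the transcription factor gene Foxm1 (2.33 to 12.9 CPM), the spindle motor gene Kif11 (3.22 to 47.2 CPM) and the kinetochore gene Cenpf (0.666 to 38.8 CPM).

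Set against each other per library, mitosis members stood higher relative to replication members toward the CD34-positive end of the sort. The mitosis mean minus the replication mean of log2(CPM + 1) was higher in CD34-positive than in CD34-negative a6-high libraries in 5 of 5 pairs, by 0.27 ± 0.18 (SD, n = 5 pairs), and higher in CD34-positive than in a6-low libraries in 5 of 5 pairs, by 0.45 ± 0.16. Between high-a6 and low-a6 libraries of CD34-negative cells, matched by number only, it was higher in 4 of 5 pairs, by 0.18 ± 0.28. With only the 12 mitosis and 15 replication members whose longest annotated transcript is under 4000 bases, the first 2 of these values were 0.33 ± 0.15 and 0.57 ± 0.12. They describe lists chosen with earlier results known and were not tested.

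KO against WT, 0 of 40 members were called in any population or in counts summed per genotype and replicate number by edgeR or DESeq2. Of all genes edgeR called 1 in each, 0.00683% of those tested in each population and 0.00641% in the sums. DESeq2 called 0.185% of all genes in CD34-positive, 0.26% in CD34-negative a6-high and 0.041% in a6-low cells and 0.917% in the sums. Replication members were mostly fitted lower in KO libraries, 17 of 19 in CD34-positive, 19 of 19 in CD34-negative a6-high, 18 of 19 in a6-low cells and 19 of 19 in the sums, with medians of -0.25, -0.50, -0.50 and -0.41 on the log2 scale. Over all genes the medians were 0.01, 0.05, 0.04 and 0.03, with 51%, 53.6%, 53.5% and 52.8% fitted higher. Mitosis members were lower in 9, 11, 15 and 11 of 18, with medians of 0.00, -0.21, -0.19 and -0.23. These counts rest on 2 KO libraries. Without KO replicate 2 the replication median was 0.01 in CD34-positive cells and -0.24 in the sums, and the mitosis median turned to 0.30 in CD34-positive and 0.14 in CD34-negative a6-high cells and to 0.18 in the sums. Without KO replicate 1 it was -0.35, -0.57 and -0.50. In the sums 8 of 19 replication members lay lower in both KO sums than in any WT sum and 0 lay higher, beside 15.3% and 15.2% of all genes.

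In the sums Tyms lay at 91.2 and 78.4 CPM in KO and 130, 106 and 159 CPM in WT replicates 1, 2 and 3 (log2 -0.64 ± 0.21, edgeR adjusted p = 0.461). Gins2 lay at 28.8 and 31.3 against 38.9, 43.2 and 50.9 CPM (log2 -0.56 ± 0.19, edgeR adjusted p = 0.461). At an unadjusted p under 0.05 the sums had 1 member higher and 7 lower in KO, beside 5.38% and 5.24% of all genes. By population these counts were 1 and 1 in CD34-positive cells (4.4% and 3.19% of all genes), 0 and 2 in CD34-negative a6-high cells (5.28% and 4.31%) and 0 and 0 in a6-low cells (2.87% and 1.82%). The 2 members with the smallest p were Pcna (log2 -0.50) and Tyms (-0.73) in CD34-negative a6-high cells, with edgeR adjusted p of 0.518 and 0.519, and Tyms (-0.66) and Pcna (-0.43) in a6-low cells, with 0.865 for each. In CD34-positive cells they were Ccnd3 (log2 -0.55 ± 0.23) and Cenpf (2.40 ± 0.94), with an edgeR adjusted p of 0.652 for each.

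Cenpf, a large kinetochore protein gene, had the largest KO minus WT log2 difference of the 40 members in CD34-positive cells, in CD34-negative a6-high cells (1.54) and in the sums. In a6-low cells no mitosis member exceeded 0.07. Genes of the wider mitosis list given below reached 2.42 in CD34-positive cells, 1.61 in CD34-negative a6-high cells and 1.37 in the sums. Cenpf stood at 38.8, 12.8, 7.18, 3.2 and 4.18 CPM in CD34-positive libraries, at 28, 9.5, 3.68, 9.65 and 5.98 CPM in CD34-negative a6-high ones and at 4.14, 10.7, 18, 0.666 and 3.65 CPM in a6-low ones. In CD34-positive cells both KO libraries lay above the 3 WT ones, as in 2 of the 40 members and in 14.9% of all genes. In a6-low cells WT replicate 1 was the highest, at 18 CPM. With no filter on low counts edgeR called Cenpf higher in KO among CD34-positive cells, beside 195 calls over all genes. In the sums it was at 23 and 10.9 CPM in KO and at 10.4, 5.8 and 4.63 CPM in WT (log2 1.28 ± 0.44, edgeR adjusted p = 0.461). Its longest annotated transcript, 11130 bases, is the longest of the members, followed by Mki67 (10061 bases) and Pole (7163 bases). The 1101 tested genes with transcripts of at least 7000 bases took 2.93% to 3.83% of CPM in KO libraries and 2.37% to 3.62% in WT libraries, with medians of 3.51% and 2.48%. The part of transcript length or RNA quality in the KO values was not tested.

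**Figure D5:**
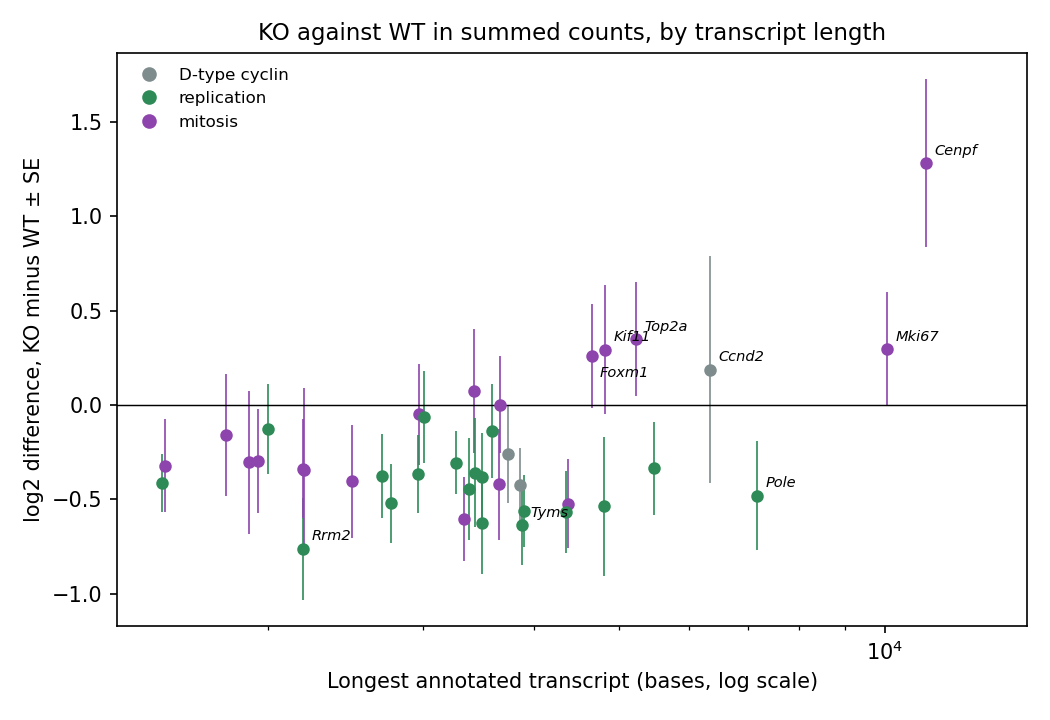
Fitted log2 difference with standard error, KO minus WT in counts summed per genotype and replicate number, against the longest annotated transcript of each member on a log axis, coloured by role. All 19 replication members lie below 0, and Cenpf, at 11130 bases, lies highest at 1.28.

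The mitosis mean minus the replication mean was also higher in KO libraries of the a6-high populations, at -0.17 and 0.22 in KO against -0.44 to -0.20 in WT libraries of CD34-positive cells, and at -0.20 and -0.15 against -0.74 to -0.53 in CD34-negative a6-high cells. In a6-low cells the genotypes overlapped (-0.53 and -0.36 against -1.08 to -0.49). Over all libraries KO exceeded WT by 0.35, and by 0.16 with only members under 4000 bases. With those members the genotypes overlapped in both a6-high populations. The difference was 0.09 in CD34-positive cells, in place of 0.32, and 0.21 in CD34-negative a6-high cells, in place of 0.45. Whether the differences between populations depended on genotype was tested as an interaction in edgeR. It called 0 of 40 members for CD34 and 0 for a6, as it did 0% of all genes, and 0 members had an unadjusted p under 0.05 in either direction, beside 0.218% of all genes higher and 0.867% lower for CD34 and 0.669% and 0.478% for a6. DESeq2 also called 0 members, beside 0.00684% of all genes for CD34 and 0% for a6. The median interaction (KO minus WT) for CD34 was 0.25 over the replication and 0.13 over the mitosis members, and for a6 -0.07 and 0.07. Leaving out 1 library moved the replication medians from -0.06 (without the KO replicate 2 library of CD34-negative a6-high cells) to 0.70 (without that of KO replicate 1) for CD34 and from -0.51 (without that of KO replicate 1) to 0.24 (without the a6-low library of WT replicate 2) for a6.

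Members varied together from library to library. The 15 libraries differ in depth (10.08 to 28.62 M) and come from 3 sorted populations, and both can enter these r values. Over them the median Pearson r of log2(CPM + 1) was 0.82 over the 171 pairs of replication members, 0.84 over the 153 pairs of mitosis members and 0.77 over the 342 pairs across the 2 lists. Taken as deviations from group means, the medians were 0.82, 0.82 and 0.81. D-type cyclins had a median r of -0.25 over their 3 pairs. With the mitosis mean, r was 0.67 for Ccnd1, -0.06 for Ccnd2 and 0.14 for Ccnd3, and among the mitosis members it was lowest for Cenpf, at 0.48. Other genes were ranked if they had a protein-coding transcript and a symbol other than Gm, Rik and similar provisional names. Among these 12257 genes the highest r with the mitosis mean was that of Melk (0.99), followed by Nek2, Spag5, Kif23, Kif2c and Chaf1a (0.97 to 0.98). Melk lay at 31.9 to 49.2 CPM in CD34-positive libraries and at 5.44 to 28.5 CPM in a6-low ones. The lowest were Akap8l (-0.89), Rps27rt, Rnf122 and Sdf2 (each -0.88). Rnf122 lay at 6.63 to 14.8 CPM in CD34-positive libraries and at 15.7 to 34.7 CPM in a6-low ones. The a6-low library of WT replicate 2, with the fewest gene counts, lay apart in these values. Its mitosis mean was 3.77, against at least 4.76 in the others. It had the lowest Melk (5.44 CPM) and the highest Akap8l, Rps27rt, Rnf122 and Sdf2. The part of this library in the r values was not tested.

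Other genes of both processes were set beside the members, 44 of replication (among them subunits of the origin complex, polymerases and clamp loader) and 44 of mitosis (condensin, kinetochore and kinesin genes). Between the a6-high populations 22 of the 44 replication genes were higher and 22 lower (median log2 0.00), and 35 of the 44 mitosis genes were higher (median 0.18), with 0 called on either list, 0 and 1 higher and 2 and 0 lower at an unadjusted p under 0.05, beside 8.11% and 7.02% of all genes. Between a6-high and a6-low cells 43 and 44 of 44 were higher, with medians of 0.62 and 0.66, 0 called and 24 and 19 higher at an unadjusted p under 0.05, beside 4.8% of all genes (edgeR). Between CD34-positive and a6-low cells 42 of 44 were higher on each list, with medians of 0.73 and 0.88, and 4 replication and 5 mitosis genes rose without the block and 16 and 24 with it, beside 2.25% and 5.68% of all genes. KO against WT in the sums, 34 of the 44 replication genes and 28 of the 44 mitosis genes were lower, with medians of -0.38 and -0.10 and 0 called on either list, 0 and 4 higher and 14 and 5 lower at an unadjusted p under 0.05, beside 5.38% and 5.24% of all genes (edgeR).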

How the data were processed

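Sorted tumour cells were profiled with SMART-Seq v4 chemistry, which does not mark strand, and libraries were made from 10 ng of cDNA with 7 PCR cycles, per the labels' protocols. The authors deposited raw counts of reads for each Ensembl gene. The submitters' processing notes name STAR 2.3.0, Picard 1.100, HTSeq 0.6.0 and mm9, with no roles, and no annotation release. Reads aligned to several places, 29.86% to 38.04% of the records, were not counted for genes, so members with pseudogene copies (Ccnb1, Ccnb2, Pcna and Tyms) are less certain, and overlapping genes cannot be told apart. Each table's 5 entries without a gene were dropped, and symbols were matched by identifier for 87.4% of 37583 genes.

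Counts of all 15 libraries were fitted with edgeR 4.0.16 under R 4.3.3 (quasi-likelihood test, TMM, filterByExpr by group), with 1 coefficient per group and Benjamini-Hochberg adjustment over 14652 genes (15597 in the sums) at 0.05. Population comparisons average the KO and WT differences, and standard errors were derived from the F statistic. Means of lists used log2(CPM + 1). Same-numbered libraries were taken as pairs where their deviations from group means correlated above 0.1 in every pair. This held for CD34-positive with CD34-negative a6-high (0.104 to 0.53) and with a6-low libraries (0.273 to 0.589), a pairing from the data and not the labels, in which the 2 KO pairs always give 1 value. It did not hold for a6-high with a6-low CD34-negative libraries (-0.012 to 0.466) or KO with WT (-0.501 to 0.105). Replicates differed by more than sampling noise, with a chi-square per degree of freedom of 38.5 to 304.

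The members and lists were chosen with earlier results of these data known. Values in every library are given by a rule for Mki67, Top2a, Cdk1, Mcm6, Pcna, Ccne1, the D-type cyclins, each member called without or with the block and the 2 replication and 2 mitosis members with the smallest p between populations. The rule also names the 2 members with the smallest p between genotypes, and the 6 genes most and 4 least like the mitosis mean. The values of Cenpf in every library, and other members named, were chosen after their values were seen. Transcript lengths and names are from GENCODE M21, of another build than the counts. Alternatives were DESeq2 1.42.0, its size factors, other filters, a fit of the compared groups only, the block and leaving out libraries. Tests were tried on simulated data.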

Additional observations from a re-analysis of the deposited data

Results flagged for a closer look

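In 33 sets of 5 libraries of 1 population, each for 1 member or list mean, the highest or lowest library was compared with the others by its gap to the nearest one over the whole range, and 5 sets passed Dixon's 95% value for 5 libraries, 0.71. Chance passes about 1 in 20 such sets, and members move together, so these are not independent. KO and WT libraries were pooled.

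Mki67 lay at 92.3 CPM in the CD34-positive library of KO replicate 1, with the other 4 at 45.2 to 55.5 CPM. In the same library Top2a lay at 157 CPM, against 66.7 to 85.6 CPM in the others, and at high a6 without CD34 it lay at 111 CPM in KO replicate 1, against 39.8 to 56.6 CPM. The replication mean of log2(CPM + 1) was 5.93 in the CD34-positive library of KO replicate 2 and 6.29 to 6.36 in the other 4. Ccnd1 lay at 216 CPM in the a6-low library of WT replicate 1, which had Itga6 at 471 CPM, against 101 to 117 CPM in the other 4 a6-low libraries.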

How the results depend on the processing

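Between the a6-high populations the count of members called, 0, became 2 with DESeq2, 5 with no filter on low counts, 1 with the compared groups only and 3 with the replicate block. For a6 in CD34-negative cells it became 14 with no filter and was 0 under all other settings run. Between CD34-positive and a6-low cells the 6 members became 16 with DESeq2, 25 with no filter, 11 with at least 10 CPM in 2 libraries, 3 with the compared groups only and 22 with the block. Leaving out 1 library gave 0 to 8, and without the a6-low library of WT replicate 2 the 6 called held Ccna2 and not Plk1. The 4 alternatives added after seeing the data gave 3 without the 2 a6-low libraries high in Itga6, 19 with the block and without the a6-low library of WT replicate 2, 0 without the 3 libraries of KO replicate 2, and the values under 4000 bases given above. Between KO and WT in CD34-positive cells no filter called 1 member, Cenpf. For KO against WT the block was the replicate number shared by both genotypes, although KO and WT libraries did not correlate by number. It changed no call of a member. The replication medians of the interactions ranged from -0.0607 to 0.6976 (CD34) and from -0.5076 to 0.2438 (a6) when 1 library was left out, and the KO median in a6-low cells from -0.88 without WT replicate 2 to -0.30 without WT replicate 1. In 596 refits of single named members between populations and 86 between genotypes, 0 turned direction. Of the 596, 40 lost a call and 78 gained one, and of the 86, 0 lost and 1 gained one. These members were named for a call or a small p in the same data, and refits reuse the libraries. A kept direction was therefore likely beforehand.

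Over all genes the calls between the a6-high populations, 171, became 853 with DESeq2, 1242 with no filter, 311 with the compared groups only, 793 with the block, 28 without KO replicate 2 and 7 to 258 without 1 library. For a6 the 1 call became 222 with DESeq2, 602 with no filter, 3 with the 10 CPM filter, 60 with the block, 351 without the 2 a6-low libraries high in Itga6 and up to 50 without 1 library. Between CD34-positive and a6-low cells 722 became 1596 with DESeq2, 1900 with no filter, 422 with the compared groups only, 1733 with the block, 137 without KO replicate 2 and 46 to 677 without 1 library. KO against WT, the 1 call in each population and in the sums became 27, 38, 6 and 143 with DESeq2 and 195, 256, 156 and 6 with no filter. The cause of these shifts was not tested. Some members, such as Cdc6, Foxm1 and Cenpf, reach only a few CPM in some libraries, and each group holds only 2 or 3 libraries. The part of depth or of the number of libraries in the test results was not tested.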
